A study of Danio rerio with 6 samples.

Results

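The genes described here serve the synthesis, elongation, storage, uptake and oxidation of fatty acids and the synthesis of cholesterol, in the retina of adult zebrafish that are homozygous mutant or wild-type for thrb, the gene for thyroid hormone receptor beta. They are the symbols that begin with elovl, fads, fasn, acsl, acaca, acacb, scd, hmgc, sqle, fdps, fdft, cyp51, dhcr, ldlr, lpl, lpcat, agpat, dgat, cpt1, cpt2, acad, hadh or srebf (a rule on names, set with earlier results of these data known). The rule found 54 genes among the 9211 that the authors' deposited table lists, and 50 of them are described, to which all counts of lipid genes below refer. Of these, ldlrad3 and ldlrap1b match by name and were not grouped with the lipoprotein receptors: the first carries a receptor-like domain and the second is an adaptor for receptor endocytosis. In the current zebrafish RefSeq annotation the rule matches 80 protein-coding symbols, 53 of them listed. The other 27, among them the fatty acid synthase gene fasn, acacb, dgat2 and fads6, were not analysed here.

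The thrb-/- retinas came from fish homozygous for the stl628 allele, and the wild-type retinas from fish of matched clutches. All fish were of the AB* background and 6 months old, and the mutation was present throughout life, so an effect in the adult cannot be told apart from an effect during development. Each genotype had 3 samples. Every sample pooled 2 retinas from a male and 2 from a female, so sexes and single animals cannot be separated. Messenger RNA was selected by its poly-A tail and sequenced. The table gives the mean of each genotype and a fold change with its standard error, and no value for a single sample.

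Cells build saturated fatty acids from acetyl-CoA, desaturate and elongate them, and activate them to acyl-CoA before storing them in glycerolipids or oxidising them in mitochondria. Cholesterol is made from the same precursor through mevalonate and squalene, under the control of the srebf transcription factors. Photoreceptor outer segments are rich in very long and polyunsaturated acyl chains, which makes the elongases well known in this tissue. In mammalian liver, thyroid hormone receptor beta is known as a regulator of cholesterol and fatty acid metabolism. The comparison asks which of these transcripts differ in the adult retina of the mutants.

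The mutated gene itself had a mean normalized count of 413 in thrb-/- retinas, against 3301 in wild-type retinas, in the authors' deposited table (log2 ratio -3.01 ± 0.13 SE). Here and below, the log2 ratio is the deposited log2 fold change of thrb-/- over wild-type, with its standard error. Normalized counts are read counts divided by a size factor per sample, and they are not corrected for gene length, so they compare genotypes and not genes. Read depth per sample is unknown. The listed genes sum to 10700117 normalized counts in thrb-/- and 10849262 in wild-type retinas. Markers of retinal cell types were present, and 3 of 3 red cone markers (thrb among them) and 8 of 8 listed markers of the pigment epithelium, the pigmented layer behind the photoreceptors, fell. The summed pigment epithelium markers stood at 3391 in thrb-/- and 6700.1 in wild-type retinas. In contrast, 3 of 7 markers of other cones and 2 of 8 rod markers rose, and the sums of all 7 and all 8 stood at 128% and 119% of wild-type. The other 4 and 6 did not pass the test, 1 and 2 of them with negative fold changes. Most of the rod sum, 981631 in thrb-/- retinas, was rho at 713968, which did not pass. None of 9 Müller glia markers passed the test (unadjusted p under 0.05 for 2 of them, both with positive fold changes), and their sums were 44380.1 and 44014 in thrb-/- and wild-type retinas. Whole-retina counts cannot tell fewer cells of a type from less RNA per cell.

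No described lipid gene was called different between the genotypes. In thrb-/- retinas 0 of the 50 genes fell and 0 rose, by a Wald test of each log2 fold change against 0 with Benjamini-Hochberg adjustment over all 9211 genes at 0.05. The background was 1.21% of all listed genes lower and 0.879% higher in thrb-/- retinas. With shares this low, a count of 0 among 50 genes does not set the lipid genes apart. At an unadjusted p under 0.05, 3 lipid genes (6%) were on the lower side and 2 (4%) on the higher side. Of all listed genes 4.54% and 3.76% were. The 3 take in acsl3a, listed through its wild-type mean alone, so their share is not read as an excess over all listed genes. The authors' own DESeq2 test, which asks for a change beyond 2-fold, called none of the 50 (0.076% of all listed genes). No lipid gene had a deposited p-value below 1, and only 36 of all 9211 listed genes had one. Point estimates beyond 2-fold number the same, 0 of the 50 and 36 of all listed genes. These counts therefore restate the sizes of the fold changes and add no further test.

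The sizes of the differences were small. The median log2 fold change (thrb-/- over wild-type) was -0.017 over the lipid genes and 0.00063 over all listed genes, with 26 of 50 and 4597 of 9211 on the negative side. The median absolute log2 fold change was 0.13 over the lipid genes and 0.095 over all listed genes. For 35 of 50 lipid genes (70.0%) the 95% interval of the fold change lay wholly within 1.5-fold in either direction, against 81.4% of all listed genes. For 47 of the 50 (94.0%) it lay within 2-fold, against 97.1% of all listed genes. The remaining 3, acsl3a, lpl and sqlea, are described with their roles. Of the 50, 2 had a point estimate beyond 1.5-fold, acsl3a and lpl, as did 157 of all 9211 listed genes. None of the 50 was beyond 2-fold, where 36 of all listed genes were. Rows in the table reach at least 50 normalized counts in the higher genotype. Among the lipid genes 2 have a genotype below that floor, acsl3a in thrb-/- and acads in wild-type retinas, so these were listed through the other genotype alone.

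**Figure D1:**
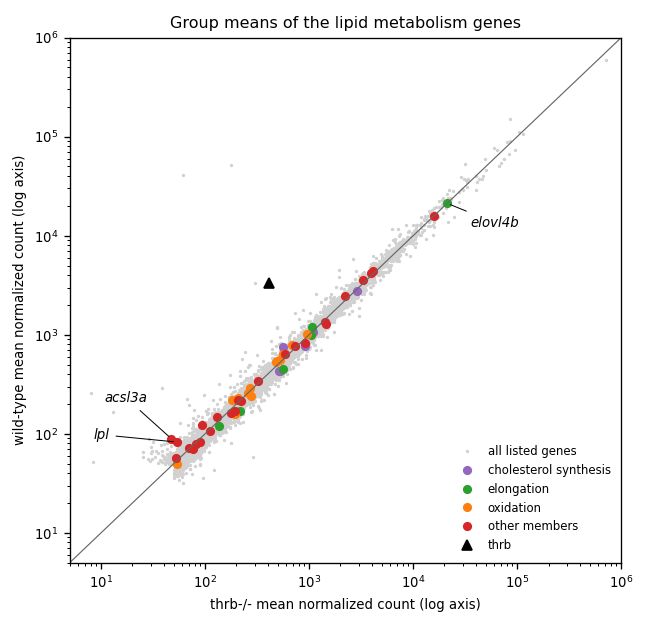
Mean normalized count of each listed gene in thrb-/- retinas (horizontal, log axis) and wild-type retinas (vertical, log axis), each point a gene and each value a mean of 3 samples from the authors' deposited table. The line marks equal means. The 50 lipid genes (coloured) run along it, whereas thrb (triangle) lies at 413 in thrb-/- and 3301 in wild-type retinas.

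The transcription factors at the head of these pathways did not pass the test. The regulator of fatty acid synthesis, srebf1, had 3937 normalized counts in thrb-/- and 4221 in wild-type retinas in the authors' deposited table (log2 ratio -0.10 ± 0.12 SE, 95% interval -0.34 to 0.14). The authors' deposited table gives srebf2, the regulator of cholesterol synthesis and lipoprotein uptake, 3322 in thrb-/- and 3543 in wild-type retinas (log2 ratio -0.093 ± 0.090 SE, interval -0.27 to 0.084). Both intervals leave out a 1.5-fold change. The enzyme that commits acetyl-CoA to fatty acid synthesis, acetyl-CoA carboxylase alpha (acaca), had 4103 normalized counts in thrb-/- and 4383 in wild-type retinas in the authors' deposited table (log2 ratio -0.095 ± 0.13 SE).

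Desaturases and most elongases had positive fold changes, none of which passed the test. For fads2, the desaturase of polyunsaturated fatty acid synthesis, the authors' deposited table gives 1452 normalized counts in thrb-/- and 1278 in wild-type retinas (log2 ratio 0.18 ± 0.099 SE, interval -0.010 to 0.38). The stearoyl-CoA desaturases scd and scdb, which place a double bond in saturated chains, stood at 0.12 (SE 0.21) and 0.063 (SE 0.099) on the log2 scale in the authors' deposited table. The median over these 3 desaturases was 0.12, beside 0.00063 over all listed genes.

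Of 6 listed elongases, 5 were on the positive side and elovl6 on the negative side, with a median log2 fold change of 0.12. The positive fold changes furthest from 0 belonged to elovl5 and elovl2, which lengthen polyunsaturated chains. For elovl5 the authors' deposited table gives 559.8 normalized counts in thrb-/- and 452 in wild-type retinas, 1.24-fold higher (log2 ratio 0.31 ± 0.13 SE, Wald adjusted p = 0.366). The authors' deposited table lists elovl2 at 218 in thrb-/- and 169 in wild-type retinas, 1.29-fold higher (log2 ratio 0.37 ± 0.19 SE, Wald adjusted p = 0.593). Their 95% intervals, 0.048 to 0.58 and 0.0024 to 0.73, leave out 0, and neither gene passed once adjusted over all listed genes. Rod and other cone markers summed to 119% and 128% of wild-type, with 2 of 8 and 3 of 7 past the test. The part of these cells in the elongase and desaturase values was not tested.

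The photoreceptor elongase elovl4b, of the family that makes very long chains and that is mutated in a human macular dystrophy, had near-equal means. It stood at 21275 normalized counts in thrb-/- and 21199.6 in wild-type retinas in the authors' deposited table (log2 ratio 0.0050 ± 0.082 SE). Its interval of -0.16 to 0.17 was the narrowest among the 50 genes, and its mean count the highest. The paralog elovl4a had 1047 in thrb-/- and 995 in wild-type retinas in the authors' deposited table (log2 ratio 0.073 ± 0.13 SE). The remaining elongases were elovl1b, which extends saturated chains, at 0.18 (SE 0.20) and elovl6, which extends shorter saturated and monounsaturated chains, at -0.18 (SE 0.096) on the log2 scale in the authors' deposited table. Thus elovl6 and elovl5 lay on opposite sides of 0, and neither passed.

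**Figure D2:**
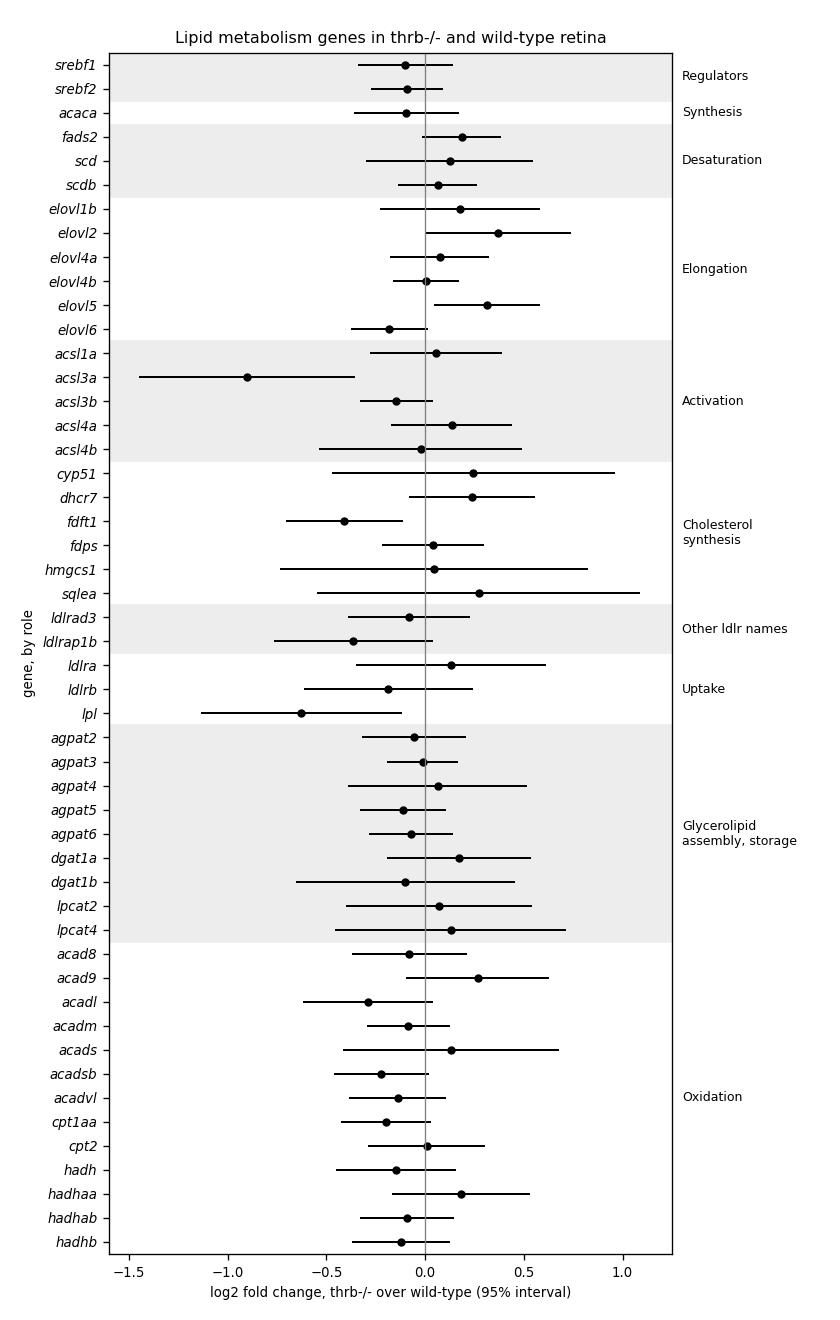
Log2 fold change (thrb-/- over wild-type) of each of the 50 genes with its 95% interval, from the authors' deposited values, grouped by role. None passed the Wald test. Most points lie within 0.5 of 0 on the log2 scale, and acsl3a at -0.90 and lpl at -0.63 lie furthest out.

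Acyl-CoA synthetases, which activate long-chain fatty acids, gave the fold change furthest from 0 among the lipid genes. In the authors' deposited table acsl3a had 47.4 normalized counts in thrb-/- and 89.4 in wild-type retinas, a level 53.5% of wild-type (log2 ratio -0.90 ± 0.28 SE, interval -1.44 to -0.36). Its Wald adjusted p of 0.05002 lay just above the threshold of 0.05, and just below it, at 0.0495, with all fold changes recentred on their median. The gene was listed through its wild-type mean alone, so these p-values come after a selection on the higher genotype. With the t distribution of 4 degrees of freedom as reference for these 6 samples, a stricter choice that only 1 listed gene passed (0.0109%), the adjusted p of acsl3a was 0.999 and that of thrb 0.102. The paralog acsl3b, a family member tied to lipid droplet formation in mammals, had 2234 in thrb-/- and 2471 in wild-type retinas in the authors' deposited table (log2 ratio -0.15 ± 0.092 SE). The synthetases acsl1a, acsl4a and acsl4b stood at 0.056, 0.13 and -0.023 on the log2 scale in the authors' deposited table, with standard errors of 0.17, 0.15 and 0.26.

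The 6 cholesterol synthesis genes described were 1 on the negative and 5 on the positive side, with a median log2 fold change of 0.14, and none passed the Wald test (1 at an unadjusted p under 0.05). Squalene synthase, fdft1, which takes the pathway towards sterols, was the negative member. The authors' deposited table gives it 563 normalized counts in thrb-/- and 747 in wild-type retinas, 75.3% of wild-type (log2 ratio -0.41 ± 0.15 SE, interval -0.70 to -0.12). It did not pass (Wald adjusted p = 0.168). The enzyme just before it, the farnesyl diphosphate synthase fdps, stood at 1102 in thrb-/- and 1072 in wild-type retinas in the authors' deposited table (log2 ratio 0.040 ± 0.13 SE). The listed pigment epithelium markers fell (8 of 8, sums of 3391 in thrb-/- and 6700.1 in wild-type retinas), and their part in the values of fdft1, acsl3a and lpl was not tested.

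The enzymes that act on squalene and lanosterol had mostly positive fold changes with wide errors. In the authors' deposited table the squalene epoxidase sqlea had 522 normalized counts in thrb-/- and 432 in wild-type retinas (log2 ratio 0.27 ± 0.41 SE, interval -0.54 to 1.08). The authors' deposited table gives the lanosterol demethylase cyp51 908 in thrb-/- and 767 in wild-type retinas (log2 ratio 0.24 ± 0.36 SE, interval -0.47 to 0.95). The reductase of a late step, dhcr7, stood at 0.24 (SE 0.16) on the log2 scale in the authors' deposited table. At the entry to the pathway, the synthase hmgcs1 had 2882 in thrb-/- and 2795 in wild-type retinas in the authors' deposited table (log2 ratio 0.044 ± 0.39 SE, interval -0.73 to 0.82). The interval of hmgcs1 reaches past 1.5-fold in both directions.

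Further sterol genes, drawn from a list of the rest of the pathway, are plotted with these 6 in reaction order. Over all 18 genes, 13 were on the positive side and 5 on the negative side, with a median log2 fold change of 0.091. Of all 9211 listed genes, 4614 were positive. By stage, the median was 0.00094 over 2 mevalonate genes (1 positive) and 0.071 over 4 isoprenoid genes (3 positive). Over the 3 squalene genes, fdft1, sqlea and lss, it was -0.0012 (1 positive). After lanosterol 8 of the 9 sterol genes were positive, with a median of 0.24 over the 9, the highest of the stages. Differences between stages were not tested. The 8 take in nsdhl, at 0.0018 (SE 0.25). They also take in the methylsterol oxidase msmo1 at 0.47 (SE 0.39), the desaturase sc5d at 0.34 (SE 0.17) and the reductase hsd17b7 at 0.28 (SE 0.18) on the log2 scale in the authors' deposited table. The last 3 are the positive values furthest from 0 after lanosterol. None of these passed, with Wald adjusted p-values of 0.979, 0.611 and 0.874. Their fold changes are opposite in sign to that of fdft1.

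**Figure D3:**
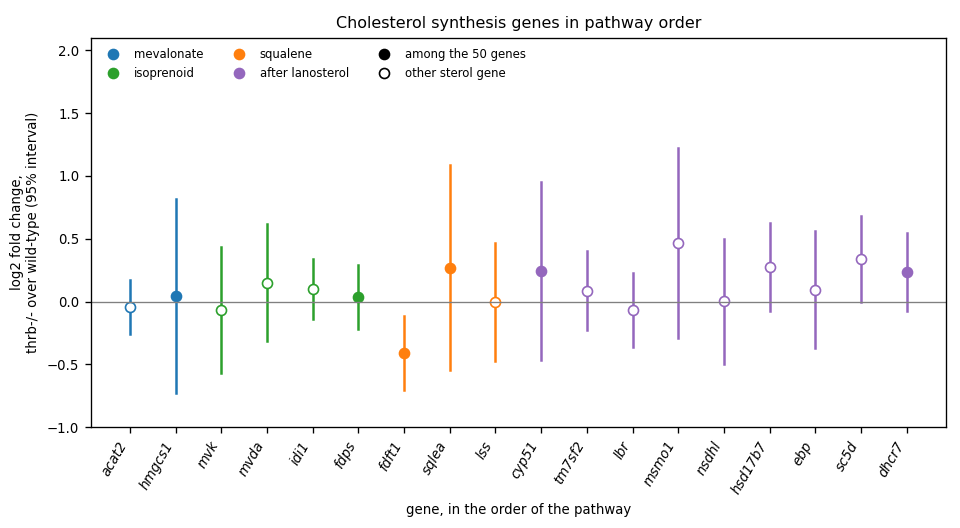
Log2 fold change (thrb-/- over wild-type) with 95% interval for 18 cholesterol synthesis genes in reaction order, coloured by stage, from the authors' deposited values. Filled points are among the 50 lipid genes and open points are other genes of the pathway. None passed the Wald test. The intervals of hmgcs1, sqlea, cyp51 and msmo1 are the widest.

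The width of these errors set some sterol genes apart. The standard error of hmgcs1 was 4.14 times the median of the 200 genes nearest to it in mean count. For sqlea the ratio was 3.33, for cyp51 3.31 and for msmo1 3.55. Of the 50 lipid genes, these first 3 exceeded a ratio of 2, and so did 141 of all 9211 listed genes (1.53%). The ratio was lower, at 1.29 for fdft1 and 1.24 for fdps, which ranked 13 and 27 from the widest beside their 200 neighbours. Between these and the widest lay lss at 1.58, mvda at 1.54 and sc5d at 1.48. Other sterol genes were near 1, such as acat2 at 0.96, lbr at 1.03 and tm7sf2 at 1.05. A standard error above that of genes with like counts is what a larger spread between samples of a genotype gives in such a fit. Which samples were high or low cannot be told apart from group means. This description was added after the values were seen.

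**Figure D4:**
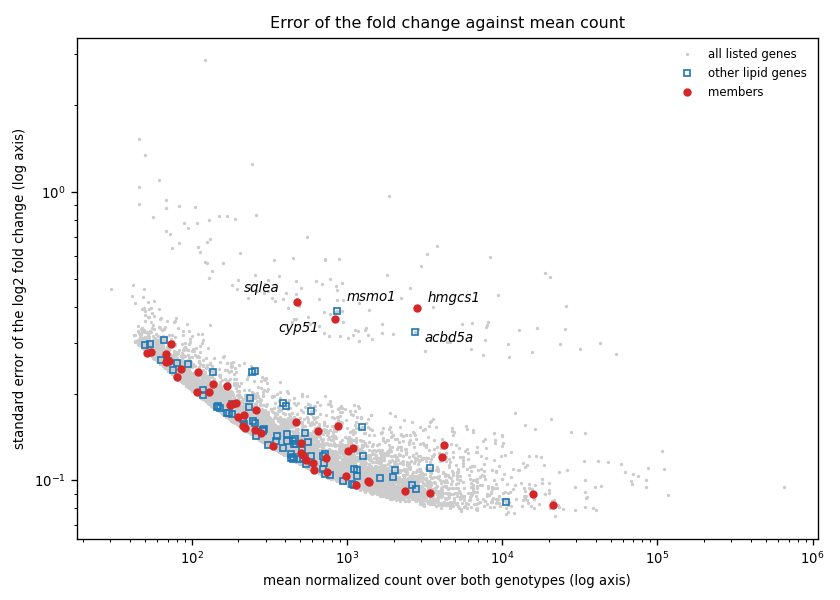
Standard error of the log2 fold change (vertical, log axis) against the mean normalized count over both genotypes (horizontal, log axis) for all listed genes, each point a gene in the authors' deposited table. The errors of hmgcs1, sqlea, cyp51, msmo1 and acbd5a, a peroxisomal acyl-CoA binding protein gene, run from 0.33 to 0.41 and stand above the band of genes with like counts.

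Genes of lipoprotein uptake were listed at low counts. The lipoprotein lipase gene lpl, whose product frees fatty acids from circulating triglyceride, had 53.4 normalized counts in thrb-/- and 82.6 in wild-type retinas in the authors' deposited table. Its level was 64.8% of wild-type (log2 ratio -0.63 ± 0.26 SE, interval -1.13 to -0.12), and it did not pass (Wald adjusted p = 0.309). The low density lipoprotein receptor genes ldlra and ldlrb stood at 0.13 (SE 0.24) and -0.19 (SE 0.22) on the log2 scale in the authors' deposited table. The adaptor gene ldlrap1b was at -0.36 (SE 0.20) and ldlrad3 at -0.081 (SE 0.15) in the authors' deposited table. For none of the 3 uptake genes did the interval lie wholly within 1.5-fold.

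Genes of storage and membrane lipid assembly lay close to 0. Of 9 genes none passed (Wald test, no gene at an unadjusted p under 0.05), 5 were negative and 4 positive, and log2 fold changes ran from -0.11 to 0.17 with a median of -0.012. The acyltransferase agpat3, which in mice supplies docosahexaenoic acid to retinal phospholipids, had 15765 normalized counts in thrb-/- and 15895 in wild-type retinas in the authors' deposited table. Its log2 ratio was -0.012 (SE 0.089, interval -0.19 to 0.16). The most positive value in the authors' deposited table was that of dgat1a, an enzyme of the last step of triglyceride synthesis, at 0.17 (SE 0.18). The most negative was that of agpat5, which acylates lysophosphatidic acid, at -0.11 (SE 0.11). The paralog dgat1b stood at -0.10 (SE 0.28), and agpat6, named gpat4 in RefSeq and serving the first acylation of glycerol phosphate, at -0.073 (SE 0.11) in the authors' deposited table. The lysophospholipid acyltransferases lpcat2 and lpcat4 were at 0.069 (SE 0.24) and 0.13 (SE 0.30), agpat2 at -0.055 (SE 0.13) and agpat4 at 0.063 (SE 0.23) in the authors' deposited table.

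No gene of the oxidation class, grouped by name, passed the test. Of its 13 genes 9 were negative (69.2%) and 4 positive, where 49.9% of all listed genes were negative. The median log2 fold change was -0.092, against 0.00063 over all listed genes, and none had an unadjusted p under 0.05. The class takes in acadsb and acad8, of branched amino acid breakdown and both negative, and acad9, known for complex I assembly and positive. The carnitine palmitoyltransferase cpt1aa, which admits long chains to mitochondria, had 559.7 normalized counts in thrb-/- and 642 in wild-type retinas in the authors' deposited table (log2 ratio -0.20 ± 0.11 SE, interval -0.42 to 0.027). Its inner membrane partner cpt2 had 256 in both genotypes in the authors' deposited table (log2 ratio 0.0070 ± 0.15 SE).

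The acyl-CoA dehydrogenases, which take the first step of each oxidation cycle, ranged from -0.29 to 0.27. Long-chain acadl was the most negative, at 179.7 normalized counts in thrb-/- and 219.7 in wild-type retinas in the authors' deposited table (log2 ratio -0.29 ± 0.17 SE). The very long-chain acadvl and medium-chain acadm stood at -0.14 (SE 0.12) and -0.085 (SE 0.10), and short-chain acads at 0.13 (SE 0.28), in the authors' deposited table. Enzymes of branched amino acid breakdown in the same family were acadsb, at -0.22 (SE 0.12), and acad8, at -0.080 (SE 0.15), in the authors' deposited table. The most positive was acad9, known for its role in complex I assembly, at 0.27 (SE 0.18) in the authors' deposited table.

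The later steps of the cycle run through the trifunctional protein and hadh. The alpha subunit genes hadhaa and hadhab stood at 0.18 (SE 0.18) and -0.092 (SE 0.12), the beta subunit gene hadhb at -0.12 (SE 0.12) and the short-chain dehydrogenase hadh at -0.15 (SE 0.15) on the log2 scale in the authors' deposited table. The difference between hadhaa and hadhab was 0.28 (SE 0.21, interval -0.14 to 0.69). Errors of such differences take the fold changes of both paralogs as independent, although both come from the same 6 samples. Of 7 pairs of listed paralogs, the unadjusted interval of the difference held 0 for 6, the elovl4, acsl4, ldlr, dgat1, hadha and scd pairs. The acsl3 pair is not read this way, because acsl3a was listed through wild-type alone. Paralogs share sequence, and the labels do not say how reads common to such pairs were counted.

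The wider lipid network gave a like picture. Of 122 symbols in 7 further classes of lipid genes, 77 were listed outside the rule. None passed the Wald test, 3 were at an unadjusted p under 0.05 with negative fold changes (a share below the 4.54% of all listed genes) and 0 with positive ones (3.76% of all listed genes), and the median log2 fold change was -0.042, with 48 negative and 29 positive. The 3 were acat1, a mitochondrial thiolase of ketone and isoleucine metabolism, at -0.28 (SE 0.10), pcyt1aa, of phosphatidylcholine synthesis, at -0.33 (SE 0.13), and npc1, a lysosomal cholesterol exporter, at -0.23 (SE 0.10), in the authors' deposited table. Their Wald adjusted p-values were 0.195, 0.298 and 0.402.

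By class, the mevalonate and sterol genes had 10 of 14 on the positive side (median log2 fold change 0.091). All of these 14 but insig1 and insig2 are also among the 18 sterol genes above, so this count largely repeats that one. The oxidation genes had 15 of 21 on the negative side (median -0.046). Of all 9211 listed genes, 4614 were positive and 4597 negative. The sterol transport genes had 7 of 8 on the negative side (median -0.11) and the glycerolipid and droplet genes 7 of 8 (median -0.090). Fatty acid transport and binding genes had a median of -0.052 (13 genes), acyl chain supply and elongation partners -0.021 (9 genes) and lipid nuclear receptors 0.029 (5 genes). The nuclear receptor gene nr1h3, at -0.10, is counted both there and among the sterol transport genes. In each class, every member missed the threshold.

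The genes with the highest mean count in each of these 7 classes were acat1, given above, and the 6 that follow. Apolipoprotein E (apoeb), secreted by glia, had 10213 normalized counts in thrb-/- and 11062 in wild-type retinas in the authors' deposited table (log2 ratio -0.12 ± 0.084 SE). The elongation partner hacd2, a dehydratase, had 2767 in thrb-/- and 2806 in wild-type retinas, and the isomerase idi1 had 1312 in thrb-/- and 1221 in wild-type retinas, in the authors' deposited table. For the nuclear receptor pparaa, a regulator of fatty acid oxidation, the authors' deposited table gives 1264 in thrb-/- and 1223 in wild-type retinas (log2 ratio 0.049 ± 0.15 SE). The phosphatidylinositol synthesis gene cdipt stood at -0.028 (SE 0.11) and acbd5a at -0.30 (SE 0.33) on the log2 scale in the authors' deposited table.

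**Figure D5:**
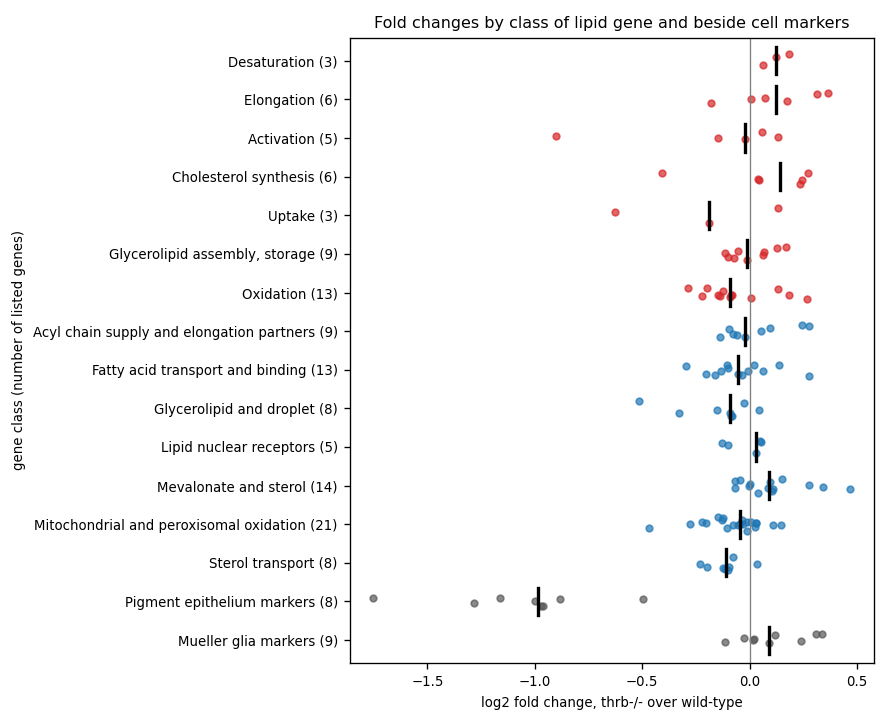
Fold change on the log2 scale (thrb-/- over wild-type) of single genes (points) and the median of each class (bars) from the authors' deposited values, for classes of the 50 lipid genes with at least 3 genes (red), further lipid classes (blue) and 2 marker lists (grey). Lipid classes have medians between -0.19 and 0.14, the Müller glia markers 0.089 and the pigment epithelium markers -0.98.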

How the data were processed

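The authors deposited 1 table of 9211 genes. Per the submitters' processing notes, reads were handled with STAR 2.7.2b, cutadapt 1.9.1 and HTSeq 0.9.1, with DESeq2 1.18.1 (R 3.4.3) and the build danRer10 also named, in no stated order. Settings, annotation and filters: not given in the sources used here. Per the labels' protocols, RNA integrity numbers were above 8.7, libraries had 12 cycles of amplification, and no step that marks strand is named, so reads of a gene and its antisense partner may not be told apart. The deposited group means are a signal, normalized counts averaged over 3 samples, with a size factor per sample. The deposited log2 fold changes (thrb-/- over wild-type) lie within 0.030 of the log2 ratio of the means. The deposited statistic, a score, and the deposited p-values test a change beyond 2-fold. Because smaller changes are then untested, the ratio of each deposited log2 fold change to its standard error was tested two-sided against a standard normal, and p-values were adjusted by Benjamini-Hochberg over 9211 genes (Python 3.11.15, scipy 1.17.1). Intervals are 1.96 standard errors to either side. The procedure was tested on fold changes simulated with the deposited standard errors taken as the true ones. That leaves untested how well errors estimated from 3 samples per genotype hold. Since samples pool animals, the standard errors behind the p-values reflect the spread between pools as the authors' model estimated it, not between single animals. Named genes were thrb, every gene past the test, the highest count and the extreme fold changes of each role, and paralog pairs; the remaining lipid genes were added for completeness. Of the 54 genes the rule matched, 4 are not reported here: they stayed in the fit and its adjustment, and no statement on the lipid genes covers them. Members and lists were chosen with earlier results of these data known. In 10 rows the gene name has become a calendar date. List symbols missing from the table were looked up through RefSeq synonyms (GRCz12tu), which serve names only.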

Additional observations from a re-analysis of the deposited data

How the results depend on the processing

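The number of described lipid genes called lower in thrb-/- retinas was 0 as reported. With fold changes recentred on the median of all listed genes (a shift of 0.00063 on the log2 scale) it was 1, acsl3a. That gene was listed through its wild-type mean alone, so this call comes after a selection on the higher genotype. The number was 0 with a t distribution (4 degrees of freedom) as reference and 0 by the authors' adjusted p. It was 0 when the adjustment ran over the 13700 genes that the deposited adjusted p-values imply. The t reference, the authors' test and the larger adjustment are each stricter than the test reported. They could not add a call, so their counts of 0 were fixed beforehand. Over the 7898 genes with a mean count of at least 100 it was 0 as well. Over all listed genes, 111 lower and 81 higher calls became 1 and 0 against the t distribution, and 6 and 1 by the authors' adjusted p. No lipid gene, of the 50 or of the 77 others, was called higher under any of these alternatives. All of them but the recentring keep the deposited fold changes, so no sign could turn there. The shift of 0.00063 in recentring is smaller than the fold change nearest to 0 among the 50 (elovl4b, 0.0050), so it could turn none either. With the log2 ratio of group means (pseudocount 1), no sign turned among the 50 and thrb. The filter at 100 leaves out 8 of the 50, acsl3a and lpl among them. No paired analysis was possible because only group means are in the table, and leaving out single replicates was not run for the same reason. Errors of 0.36 to 0.41 on the log2 scale limit hmgcs1, sqlea and cyp51.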

Other observations

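Receptors that take up or sense lipid outside the lists, looked up after the values were seen, did not pass the Wald test. In the authors' deposited table the very low density lipoprotein receptor vldlr had 1754 normalized counts in thrb-/- and 1753 in wild-type retinas (log2 ratio 0.0013 ± 0.12 SE). The reelin and lipoprotein receptor apoer2 stood at 0.23 (SE 0.12) and the multiligand receptor lrp2a at -0.033 (SE 0.15) on the log2 scale in the authors' deposited table. The adiponectin receptor genes adipor1a, adipor1b and adipor2 were at -0.080, -0.096 and 0.13 in the authors' deposited table. The fatty acid binding protein fabp1a had 179 in thrb-/- and 243 in wild-type retinas in the authors' deposited table (log2 ratio -0.45 ± 0.16 SE, Wald adjusted p = 0.177).

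The wide errors of some sterol genes had company. Ranked by the ratio of the standard error to the median of the 200 genes nearest in mean count, hmgcs1 was the 35th of 9211 genes, msmo1 the 56th, acbd5a the 67th, sqlea the 78th and cyp51 the 80th. The top 3 of that ranking were zgc:198329 (ratio 14.3), tax1bp1b (9.90) and sept8b (8.11), against 4.14 for hmgcs1. Whether these genes vary in the same samples could not be seen from group means and was not tested.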
